A study of Mus musculus with 12 samples.

Results

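Oligodendrocytes, the cells that wrap axons of the central nervous system in myelin, arise from progenitors that persist in adult white matter, divide after demyelination and replace lost myelin. On leaving the cell cycle these progenitors pass through a short committed or premyelinating stage, in which the progenitor surface receptors are switched off and a different set of genes is expressed, before the myelin proteins accumulate. Levels were described for 8 genes of these stages: the progenitor genes Pdgfra, Cspg4, Ptprz1, Lhfpl3 and C1ql1, and the committed-stage genes Gpr17, Bcas1 and Enpp6. They were chosen by symbol, each matched through its Ensembl identifier, and all 8 were found among the 46078 genes of the count table and passed the filter that left 15866 genes for testing.

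The RNA came from ventrolateral white matter of the spinal cord of C57Bl6 mice, cut out by laser capture, in 4 groups of 3 pools with 5 mice in each pool. Young naïve and middle-aged naïve mice received no injection, and young injured and middle-aged injured mice were taken 72 h after lysolecithin, a detergent-like lipid that strips myelin, had been injected into that tract. By the study's methods the young mice were 6 weeks and the middle-aged mice 8 months old. No vehicle-injected group was among them, so the needle, the vehicle and lysolecithin cannot be told apart. Mice within a pool were mixed, so the spread is that between pools. Injury comparisons and age comparisons share pools, so they are not independent of each other.

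Library totals ran from 9834447 to 12807437 assigned counts, and 3 counts corresponded to between 0.234 and 0.305 CPM, the count scaled to a common library total. Within a group, log2 CPM over all tested genes correlated at 0.937 to 0.988 between pools, with the lowest values for middle-aged naïve replicate 2 against the other two pools of its group. As the label of white matter implies, the summed level of 14 mature oligodendrocyte markers was high in the naïve pools, at 56379 to 108161 CPM. Astrocyte markers (8 genes) summed to 11072 to 13092 CPM and neuronal markers (6 genes) to 767 to 2158 CPM in the same pools, so the cuts held other cells as well. In pooled tissue of this kind, fewer cells of a type and less RNA per cell cannot be told apart. Levels below are TMM-scaled CPM (CPM after a scaling that brings most genes level between libraries), given for replicates 1, 2 and 3 in that order, and adjusted p-values are from edgeR's quasi-likelihood test with Benjamini-Hochberg adjustment over the 15866 genes, with 0.05 as the threshold.

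RefSeq windows around the annotated start were matched for 5 of the 8 members, and those of Bcas1, Gpr17 and C1ql1 were not searched here. The windows of 4 members are printed to show the sequence next to Pdgfra, Cspg4 and Enpp6, which passed the injury test at both ages, and next to Lhfpl3, which held the most matches among the 5 searched. SOX-family and OLIG2 proteins are the transcription factors known to run the lineage, and the letters searched on both strands were ACAAAG and ACAATG, both cores of SOX sites, and CAGCTG, a palindromic E-box. The windows (RefSeq, GRCm38.p6, all on the plus strand) run from 250 bases before to 50 bases after the start, at chr5:75152001-75152300 for Pdgfra, chr9:56864854-56865153 for Cspg4, chr5:22745804-22746103 for Lhfpl3 and chr8:46986637-46986936 for Enpp6, and capitals mark the matches.
Pdgfra: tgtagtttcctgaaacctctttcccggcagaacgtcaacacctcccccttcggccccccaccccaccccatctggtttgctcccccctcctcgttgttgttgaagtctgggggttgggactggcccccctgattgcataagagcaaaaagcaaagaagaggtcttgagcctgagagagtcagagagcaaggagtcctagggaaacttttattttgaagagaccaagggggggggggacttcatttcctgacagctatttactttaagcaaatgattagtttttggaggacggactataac
Cspg4: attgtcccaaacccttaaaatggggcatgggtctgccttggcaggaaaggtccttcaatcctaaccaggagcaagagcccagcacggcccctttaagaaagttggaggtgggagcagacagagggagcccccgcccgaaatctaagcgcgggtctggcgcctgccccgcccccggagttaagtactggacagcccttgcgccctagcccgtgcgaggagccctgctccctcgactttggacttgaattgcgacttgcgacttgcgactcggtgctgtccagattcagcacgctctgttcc
Lhfpl3: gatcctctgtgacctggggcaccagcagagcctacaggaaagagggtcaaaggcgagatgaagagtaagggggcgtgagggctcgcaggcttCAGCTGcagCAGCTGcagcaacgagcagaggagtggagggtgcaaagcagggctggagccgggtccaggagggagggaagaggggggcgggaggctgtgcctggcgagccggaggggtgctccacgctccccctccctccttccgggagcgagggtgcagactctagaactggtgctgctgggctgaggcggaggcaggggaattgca
Enpp6: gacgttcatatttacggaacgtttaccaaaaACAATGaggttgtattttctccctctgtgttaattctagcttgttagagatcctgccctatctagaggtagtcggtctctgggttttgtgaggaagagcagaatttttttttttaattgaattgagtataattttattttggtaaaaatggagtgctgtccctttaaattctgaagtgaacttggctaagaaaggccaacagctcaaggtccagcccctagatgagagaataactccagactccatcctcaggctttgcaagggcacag
Counted from the start, with negative positions before it, CAGCTG began at -158 and -149 in the Lhfpl3 window, and ACAATG began at -219 in the Enpp6 window. None of the 3 motifs was found in the windows of Pdgfra, Cspg4 or Ptprz1. Of the 32851 windows of this length, 18.7% held ACAAAG, 12.6% held ACAATG and 16.3% held CAGCTG, so the matches describe the letters in these windows and no more.

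The plot of the levels in each pool shows the patterns that the next paragraphs take in turn: Pdgfra and Cspg4 higher after injury, Enpp6 and Bcas1 lower after injury, and Gpr17 lower in middle-aged mice with and without injury.

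**Figure D1:**
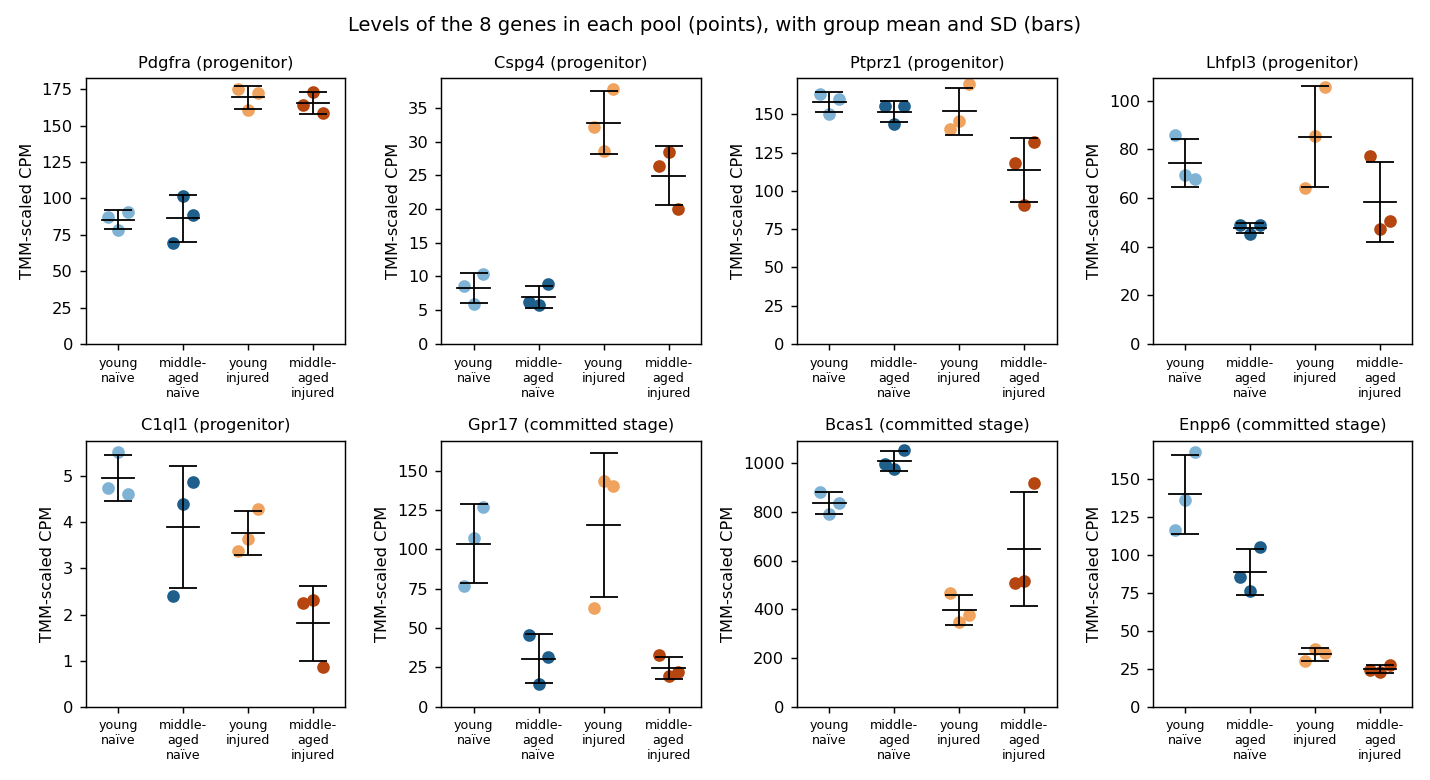
TMM-scaled CPM (y axis, linear from 0, a separate scale for each gene) of the 8 genes in the 4 groups (x axis). Each point is a pool of 5 mice, and the bars give the mean and SD of 3 pools. The injured pools of Pdgfra (159 to 175 CPM) lie above all naïve pools (69.4 to 102 CPM), and the middle-aged pools of Gpr17 (14.4 to 45.4 CPM) lie below all young pools (62.9 to 144 CPM).

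The receptor Pdgfra and the proteoglycan Cspg4 rose after injury at both ages. Pdgfra (ENSMUSG00000029231, chromosome 5 of GRCm38, 75152292 to 75198215, plus strand) encodes the receptor through which platelet-derived growth factor keeps progenitors dividing. It stood at 87.1, 78.2 and 90.9 CPM in young naïve pools and at 69.4, 102 and 88.4 CPM in middle-aged naïve pools. After injury it was 175, 161 and 172 CPM in young pools and 164, 174 and 159 CPM in middle-aged pools. Every injured pool was higher than every naïve pool, and the ages overlapped in both states. The rise was 1.98-fold in young mice (log2 fold change 0.99, SE 0.13, adjusted p = 1.94e-05, edgeR) and 1.91-fold in middle-aged mice (0.94, SE 0.13, adjusted p = 2.80e-05, edgeR).

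Cspg4 (ENSMUSG00000032911, chromosome 9, 56865033 to 56899870, plus strand) encodes the NG2 proteoglycan of the progenitor surface and was much less abundant, with 55 to 111 counts in the naïve pools. Its level was 8.56, 5.89 and 10.4 CPM in young naïve and 6.24, 5.77 and 8.88 CPM in middle-aged naïve pools. With injury it reached 32.2, 28.5 and 37.7 CPM in young pools and 26.4, 28.4 and 20.03 CPM in middle-aged pools, again with no overlap between injured and naïve. The rise was 3.96-fold in young mice (log2 fold change 1.99, SE 0.24, adjusted p = 6.86e-06, edgeR) and 3.56-fold in middle-aged mice (1.83, SE 0.24, adjusted p = 1.41e-05, edgeR). All 3 middle-aged injured pools were below the young injured pools, but the age difference of -0.39 did not pass (adjusted p = 0.680, edgeR).

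Pericytes also carry Cspg4, and fibroblasts carry Pdgfra, so markers of both cell types were set beside these rises. All 7 fibroblast markers, among them Col1a1, Dcn and Lum, rose in young mice, and 5 of 7 rose in middle-aged mice, with Ogn and Slc6a13 not called. Their summed level was 64.4 to 82.6 CPM in young naïve, 67.7 to 116 CPM in middle-aged naïve pools. It was 910 to 1446 CPM after injury in young and 405 to 822 CPM after injury in middle-aged mice. Of 8 pericyte markers 7 were tested, and 4 fell in young and 5 in middle-aged mice. The pericyte sums were 287 to 362, 304 to 431, 194 to 227 and 127 to 211 CPM in the same order of groups. With injury 28.3% of all tested genes were higher and 26.3% lower in young mice, and 29.2% and 29.3% in middle-aged mice. None of the markers tested was at 0 in any pool, while Higd1b, a pericyte marker too low to be tested, reached 0 in a middle-aged naïve pool. The pericyte marker Notch3 did not pass at either age (log2 fold change 0.21 in young and -0.58 in middle-aged mice), and Pdgfrb, a receptor of pericytes and fibroblasts that was counted with the ligands and partners, rose (0.85 and 0.70). The part of both cell types in the rises of Pdgfra and Cspg4 was not tested.

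**Figure D2:**
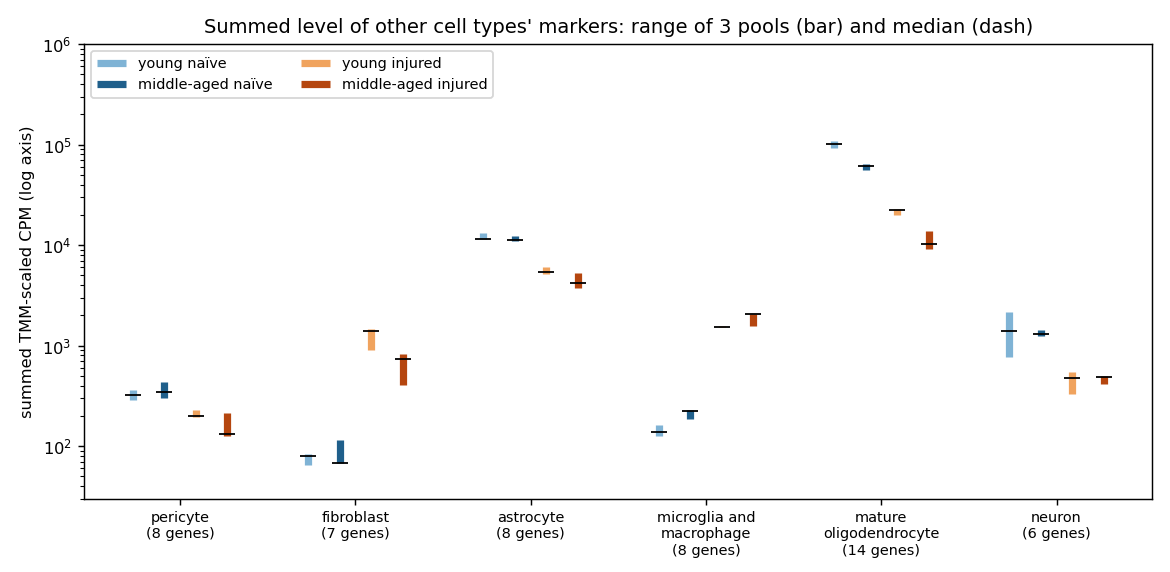
Summed TMM-scaled CPM (y axis, log scale) of the marker genes of 6 other cell types (x axis) in the 4 groups, with the range of 3 pools as a bar and the median pool as a dash. Fibroblast sums rose from 64.4 to 116 CPM in naïve pools to 405 to 1446 CPM in injured pools, and mature oligodendrocyte sums fell from 56379 to 108161 CPM to 9065 to 22646 CPM.

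None of the other 3 progenitor genes passed as higher after injury. Ptprz1 (ENSMUSG00000068748, chromosome 6, 22875502 to 23052916, plus strand) encodes a receptor phosphatase that binds pleiotrophin and contactins, and astrocytes express it as well. It measured 163, 150.5 and 160 CPM in young naïve and 156, 144 and 156 CPM in middle-aged naïve pools. After injury it was 140.5, 146 and 170 CPM in young and 118, 90.7 and 132 CPM in middle-aged pools. Young groups overlapped (log2 fold change -0.06, 95% interval -0.34 to 0.23, adjusted p = 0.753, edgeR), and the sign turned to 0.14 with library totals. Middle-aged injured pools were all below the middle-aged naïve pools, a fall of 0.42 on the log2 scale (SE 0.13, adjusted p = 0.0150, edgeR). That call was lost without middle-aged injured replicate 2, the lowest pool (adjusted p = 0.0750, edgeR), and under library totals without TMM scaling (adjusted p = 0.0650, edgeR). Astrocyte markers fell at the same time, 7 of 8 at each age, against 26.3% of all tested genes in young and 29.3% in middle-aged mice. The astrocyte sums went from 11072 to 12186 CPM in middle-aged naïve to 3774 to 5285 CPM in middle-aged injured pools. The part of astrocytes in the fall of Ptprz1 was not tested.

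Lhfpl3 (ENSMUSG00000106379, chromosome 5, 22746059 to 23275597, plus strand) encodes a tetraspan membrane protein used as a progenitor marker. It stood at 85.8, 69.4 and 68.0 CPM in young naïve and, more tightly, at 48.7, 45.1 and 48.8 CPM in middle-aged naïve pools. Injured pools were more scattered, at 64.2, 85.4 and 106 CPM in young and 77.3, 47.4 and 50.4 CPM in middle-aged mice. Injured and naïve pools overlapped at both ages, with a log2 fold change of 0.19 in young (95% interval -0.23 to 0.62) and 0.30 in middle-aged mice (-0.14 to 0.73). The difference missed the threshold in each (adjusted p = 0.437 and 0.225, edgeR), and a rise within these intervals was not detectable. Middle-aged naïve pools were all below young naïve pools (log2 difference -0.65, SE 0.20), which missed the threshold in edgeR (adjusted p = 0.0979) but passed it in DESeq2 (adjusted p = 0.0464). Its exons share 567 bases with those of A930003O13Rik (10 to 160 counts), and with no strand setting given the reads of both genes cannot be told apart there.

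C1ql1 (ENSMUSG00000045532, chromosome 11, 102939264 to 102946688, minus strand), a secreted C1q-like protein that progenitors make, was the member with the fewest reads, 10 to 61 counts a pool. It lay at 4.74, 5.53 and 4.62 CPM in young naïve and 2.40, 4.41 and 4.88 CPM in middle-aged naïve pools. After injury it lay at 3.38, 3.64 and 4.29 CPM in young and at 2.24, 2.32 and 0.863 CPM in middle-aged pools. Young injured pools lay below young naïve pools without passing the test (log2 fold change -0.40, 95% interval -1.15 to 0.36, adjusted p = 0.366, edgeR). In middle-aged mice C1ql1 fell by 1.10 on the log2 scale (SE 0.38, adjusted p = 0.0209, edgeR). The lowest pool, middle-aged injured replicate 3, rested on 10 counts, or 0.885 CPM of its library total with a 95% Clopper-Pearson interval of 0.424 to 1.63, which covers counting error only. Without that pool the adjusted p was 0.0833, and without middle-aged naïve replicate 3 it was 0.0801, and with only the pools compared in the fit it was 0.0785 (edgeR).

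Among the committed-stage genes, Enpp6 and Bcas1 fell after injury and Gpr17 did not change detectably. Enpp6 (ENSMUSG00000038173, chromosome 8, 46986887 to 47096762, plus strand), a choline phosphodiesterase made by newly formed oligodendrocytes, stood at 116, 136 and 167 CPM in young naïve and 85.3, 75.8 and 105 CPM in middle-aged naïve pools. In injured pools it was 29.7, 38.1 and 35.3 CPM in young and 24.2, 22.7 and 27.4 CPM in middle-aged mice, with no overlap between the 4 groups. The fall was 4.06-fold in young (log2 fold change -2.02, SE 0.17, adjusted p = 1.77e-07, edgeR) and 3.59-fold in middle-aged mice (-1.84, SE 0.17, adjusted p = 4.13e-07, edgeR).

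Bcas1 (ENSMUSG00000013523, chromosome 2, 170346991 to 170427845, minus strand) marks premyelinating oligodendrocytes at protein level and remains present in myelin. Its level was 883, 792 and 838 CPM in young naïve and 996, 975 and 1054 CPM in middle-aged naïve pools. After injury it was 465.5, 348 and 378 CPM in young and 509.7, 518 and 919 CPM in middle-aged pools, where replicate 3 stood well above the other two. It fell 2.11-fold in young (log2 fold change -1.08, SE 0.19, adjusted p = 0.00027, edgeR) and 1.55-fold in middle-aged mice (-0.64, SE 0.19, adjusted p = 0.0103, edgeR). The middle-aged call was lost without middle-aged injured replicate 1 (adjusted p = 0.0556) or replicate 2 (adjusted p = 0.0536, both edgeR). Exons of Bcas1os1 and Bcas1os2, on the other strand, share 440 and 34 bases with it and drew 205 to 630 and 150 to 665 counts, and reads of the overlap cannot be assigned to a strand here.

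Gpr17 (ENSMUSG00000052229, chromosome 18, 31942997 to 31949636, minus strand) encodes a receptor of committed progenitors that holds back their maturation. It was 76.9, 107 and 127 CPM in young naïve and 62.9, 144 and 141 CPM in young injured pools, which overlapped (log2 fold change 0.16, 95% interval -0.61 to 0.93, adjusted p = 0.734, edgeR). Middle-aged naïve pools held 45.4, 14.4 and 31.7 CPM and middle-aged injured pools 32.7, 19.3 and 22.3 CPM, and overlapped too (-0.30, 95% interval -1.11 to 0.50, adjusted p = 0.509, edgeR). Injury effects within these wide intervals were not detectable with these pools.

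Counted together, 4 of the 8 genes passed the test for injury in young mice, 2 higher and 2 lower, where 54.6% of all tested genes did so, 28.3% higher and 26.3% lower. In middle-aged mice 6 of 8 passed, 2 higher and 4 lower, against 58.5% of all tested genes, 29.2% higher and 29.3% lower. Naïve and injured pools did not overlap for 5 of the 8 genes in young and 6 of the 8 in middle-aged mice, against 67.2% and 61.1% of all tested genes. Read against that background the counts are no result about the genes, which differed from one another in direction. The median log2 fold change was 0.19 for the 5 progenitor genes and -1.08 for the 3 committed-stage genes in young mice, and 0.30 and -0.64 in middle-aged mice, against 0.00054 and -0.032 over all tested genes.

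**Figure D3:**
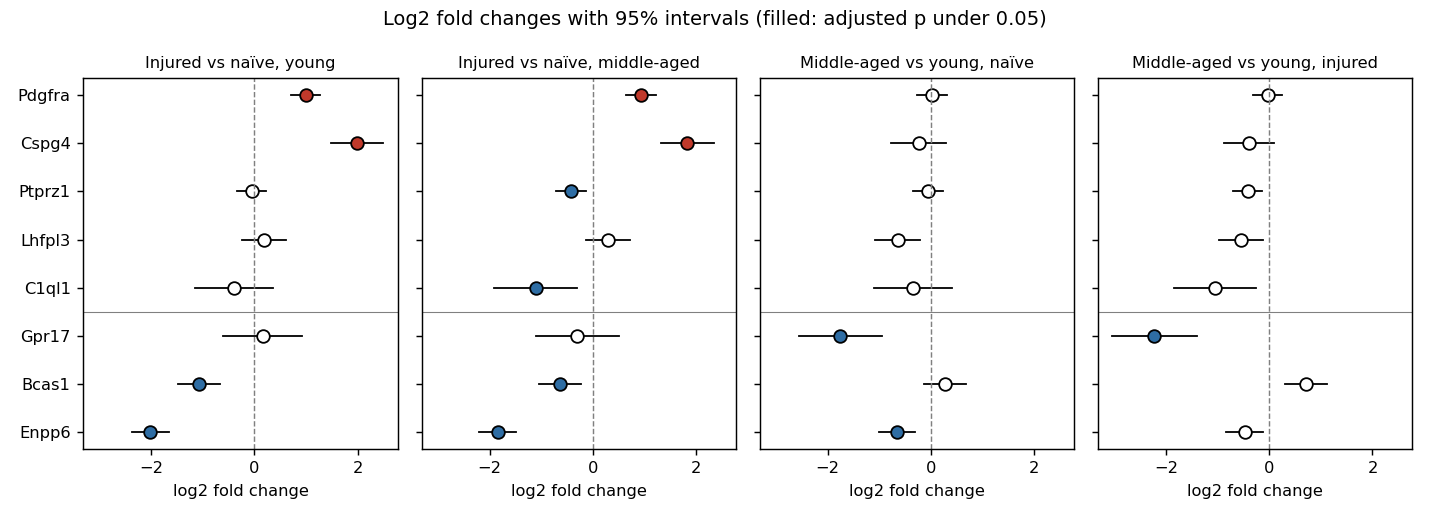
Log2 fold change of each of the 8 genes with its 95% interval (x axis) in the 2 injury and 2 age comparisons, with points filled red (higher) or blue (lower) where the edgeR adjusted p was under 0.05 and a line between progenitor and committed-stage genes. Pdgfra and Cspg4 lie right of 0 and Enpp6 and Bcas1 left of 0 after injury at both ages, and Gpr17 lies furthest left in both age comparisons.

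Gpr17 was lower with age. The level was 3.39-fold lower in middle-aged than in young naïve mice (log2 difference -1.76, SE 0.38, adjusted p = 0.0195, edgeR) and 4.67-fold lower in middle-aged than in young injured mice (-2.22, SE 0.38, adjusted p = 0.0102, edgeR), with no overlap of pools in either state. The naïve call held without middle-aged naïve replicate 2, the lowest pool (log2 difference -1.43, adjusted p = 0.0291), and was lost without young naïve replicate 2 (adjusted p = 0.0611) or replicate 3 (adjusted p = 0.0619), and with only the naïve pools in the fit (adjusted p = 0.0945, all edgeR). The injured call was lost without young injured replicate 2 (adjusted p = 0.0642) or 3 (adjusted p = 0.0674), or middle-aged injured replicate 2 (adjusted p = 0.0958) or 3 (adjusted p = 0.0501, all edgeR). Lims2, on the other strand, shares 188 exon bases with Gpr17 and drew 94 to 1031 counts, and its own age differences were -1.18 in naïve and -2.40 in injured mice on the log2 scale.

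Enpp6 was 1.57-fold lower in middle-aged than in young naïve mice (log2 difference -0.65, SE 0.16, adjusted p = 0.0404, edgeR). That call held without young naïve replicate 1 and without middle-aged naïve replicate 3 and was lost when any other of the 12 pools was left out, with adjusted p from 0.0541 to 0.118 (edgeR). It was also lost with library totals (adjusted p = 0.0558) and with only the naïve pools in the fit (adjusted p = 0.229, both edgeR). The same gene was lower in every middle-aged injured than in every young injured pool, a log2 difference of -0.48 that did not pass (adjusted p = 0.274, edgeR). Bcas1 differed in the opposite direction, with every middle-aged pool above every young pool of its state, at log2 differences of 0.27 in naïve (adjusted p = 0.484) and 0.71 in injured mice (adjusted p = 0.109, both edgeR). Bcas1 in injured mice passed in DESeq2 (adjusted p = 0.0193).

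With age, 2 of the 8 genes passed in naïve mice, Gpr17 and Enpp6, both lower, where 3.8% of all tested genes passed in either direction and 1.78% were lower. In injured mice 1 of 8 passed, Gpr17, where 1.15% of all tested genes passed in either direction and 0.908% were lower. Pools did not overlap between ages for 4 of the 8 genes in naïve and 6 of the 8 in injured mice, against 17.1% and 23.3% of all tested genes. Pdgfra was the member least moved, at 0.02 in naïve mice (95% interval -0.26 to 0.30, adjusted p = 0.966) and -0.03 in injured mice (95% interval -0.31 to 0.25, adjusted p = 0.995, both edgeR).

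Whether injury acted differently at the ages was tested by the difference of the injury effects. None of the 8 genes passed it in edgeR (adjusted p from 0.566 to 0.966), where 0.139% of all tested genes did, with 0 of 8 at an unadjusted p under 0.05 and 0 of 8 in DESeq2. Injury passed in middle-aged mice alone for Ptprz1 and C1ql1. Ptprz1 had the lowest unadjusted p for the difference, 0.0748, and that of C1ql1 was 0.191 (both edgeR). The fall of neither gene was therefore shown to differ between the ages.

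The balance between the stages was followed in each pool as the mean log2 CPM of the 3 committed-stage genes minus that of the 5 progenitor genes. It was 2.51, 2.87 and 2.91 in young naïve and 2.68, 1.86 and 2.28 in middle-aged naïve pools. In young injured pools it was 1.09, 1.41 and 1.16, and in middle-aged injured pools 0.91, 0.80 and 1.49. In this difference injured pools were all below naïve pools at both ages, while the ages overlapped in both states. The left side of the plot of stage means shows the 2 means themselves, pool by pool. Committed-stage means were lower in middle-aged than in young pools without overlap, at 6.68 to 7.30 against 7.64 to 8.03 in naïve mice. In injured mice they were 5.94 to 6.37 against 6.58 to 6.96. Progenitor means overlapped between ages in naïve pools but not in injured pools (4.88 to 5.31 against 5.49 to 5.79). With injury in young mice, the progenitor mean went from 5.07 ± 0.10 to 5.61 ± 0.16 and the committed-stage mean from 7.83 ± 0.20 to 6.83 ± 0.21 (log2 CPM, SD, n = 3). In middle-aged mice the progenitor mean went from 4.80 ± 0.18 to 5.11 ± 0.21 and the committed-stage mean from 7.08 ± 0.34 to 6.17 ± 0.22. No test was made of these means, since the genes were picked by stage and not drawn at random. Nor do they stand for each gene of a stage. Of the 5 progenitor genes only 2, Pdgfra and Cspg4, passed as higher with injury at each age. In middle-aged mice 2 others, Ptprz1 and C1ql1, passed as lower. Of the 3 committed-stage genes 2, Enpp6 and Bcas1, passed as lower at each age, and Gpr17 did not pass.

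**Figure D4:**
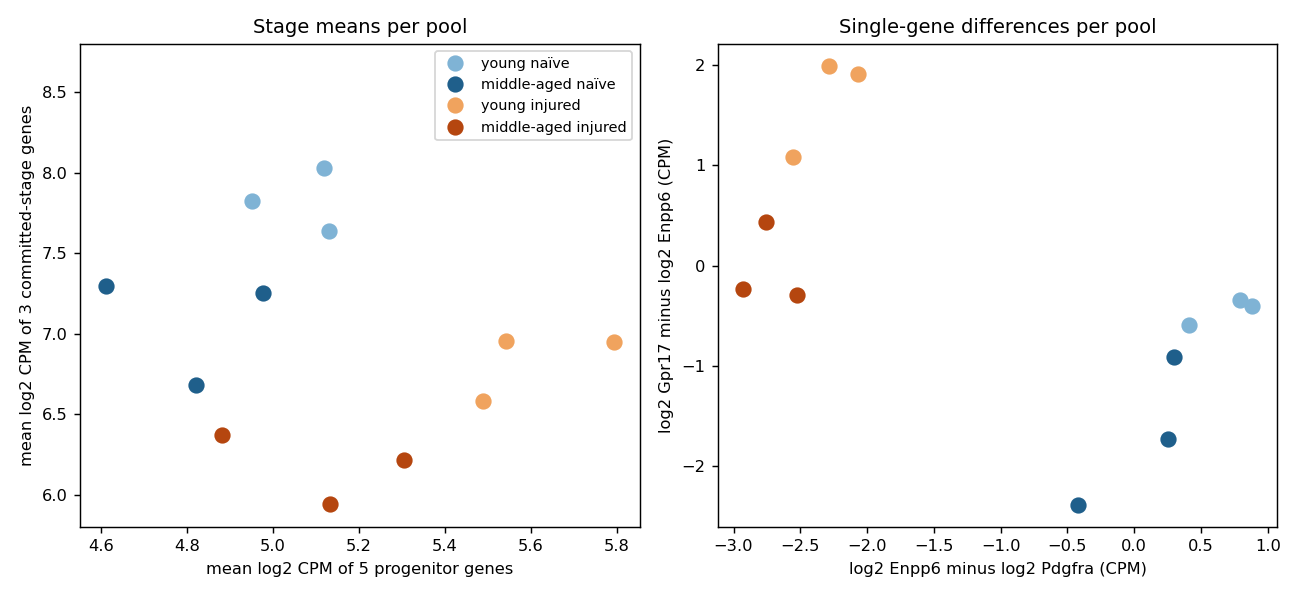
Left, mean log2 CPM of the 5 progenitor genes (x axis) against that of the 3 committed-stage genes (y axis). Right, log2 CPM of Enpp6 minus Pdgfra (x axis) against Gpr17 minus Enpp6 (y axis), with 1 point per pool and a colour per group, so that on the left the middle-aged naïve pools lie below the young naïve pools, and on the right injured pools (-2.93 to -2.07) and naïve pools (-0.42 to 0.88) separate along the x axis. That separation follows from pairing a gene that fell with a gene that rose.

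For the pair of Enpp6, which fell, and Pdgfra, which rose, Enpp6 minus Pdgfra on the log2 CPM scale was 0.41, 0.80 and 0.88 in young naïve and 0.30, -0.42 and 0.25 in middle-aged naïve pools. After injury it was -2.55, -2.07 and -2.28 in young and -2.76, -2.93 and -2.53 in middle-aged pools. Each gene alone already separated injured from naïve pools, so their difference had to do so and adds no evidence.

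The committed-stage genes did not move as a unit. Gpr17 minus Enpp6 on the log2 CPM scale was -0.59, -0.34 and -0.40 in young naïve pools and 1.08, 1.91 and 1.99 in young injured pools. This difference compares the 2 genes within a pool, and the gene lengths enter it as a constant. In middle-aged naïve pools the difference was -0.91, -2.38 and -1.73, and in middle-aged injured pools 0.43, -0.23 and -0.30. It was higher in every injured than in every naïve pool of the same age, and lower in every middle-aged than in every young pool of the same state. Enpp6 alone already separated injured from naïve pools, and Gpr17 alone already separated the ages. The difference of the 2 genes is therefore no separate evidence. Bcas1 minus Enpp6 was 2.60 ± 0.31 in young naïve, 3.52 ± 0.18 in middle-aged naïve pools, and 3.52 ± 0.40 in young and 4.65 ± 0.36 in middle-aged pools after injury (SD, n = 3).

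Levels of different genes were compared after division by exon length, as CPM per kilobase. Bcas1 was highest in every group, at 222 CPM per kilobase in young naïve, 267 in middle-aged naïve pools, and at 105 in young and 172 in middle-aged pools after injury. In young naïve pools Lhfpl3 (23.2), Enpp6 (21.8) and Gpr17 (19.96) followed with overlapping pools, then Ptprz1 (11.1), Pdgfra (8.52), C1ql1 (3.37) and Cspg4 (0.695). In young injured pools the order was Lhfpl3 (26.5), Gpr17 (22.3) and Pdgfra (16.9), each overlapping its neighbour, then Ptprz1 (10.7), Enpp6 (5.36), and Cspg4 (2.75) and C1ql1 (2.56), which overlapped. Enpp6 thus moved from beside Lhfpl3 to below Ptprz1, and Pdgfra moved up. In middle-aged naïve pools the order after Bcas1 was Lhfpl3 (14.8), Enpp6 (13.8), Ptprz1 (10.6), Pdgfra (8.63), Gpr17 (5.87), C1ql1 (2.64) and Cspg4 (0.584). There the pools of Lhfpl3 and Enpp6 overlapped, and from Ptprz1 through Pdgfra and Gpr17 to C1ql1 each gene overlapped the next, so most of that order was not resolved. In middle-aged injured pools it was Lhfpl3 (18.2), Pdgfra (16.5), Ptprz1 (7.97), Gpr17 (4.77), Enpp6 (3.86), Cspg4 (2.09) and C1ql1 (1.23), with Lhfpl3 and Pdgfra overlapping, and Gpr17 and Enpp6 overlapping.

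Wider lists of the same stages were mixed after injury. Of 20 other progenitor genes, 6 rose and 4 fell at each age, with medians of 0.44 in young and 0.02 in middle-aged mice; with library totals 12 rose and 4 fell in young mice. Those that rose included Sapcd2 (log2 fold change 1.77 in young and 1.71 in middle-aged mice), Xylt1, which starts glycosaminoglycan chains on proteoglycans (1.86 and 1.64), and Vcan, a large chondroitin sulfate proteoglycan (1.53 and 1.20). Xylt1 rested on few reads, 3 to 8 counts in young naïve and 1 to 9 counts in middle-aged naïve pools. Those that fell included Epn2, an endocytic adaptor (-1.55 and -1.91), and Megf11, a transmembrane receptor with EGF-like repeats (-1.18 and -1.02), at both ages, the ubiquitin ligase Lnx1 in young mice (-0.82) and the adhesion molecule Dscam most in middle-aged mice (-1.13). Of 17 other committed-stage genes 16 were analysed here, and 2 rose and 5 fell in young mice and 4 rose and 6 fell in middle-aged mice, with medians of -0.16 and -0.06. Over all tested genes 28.3% were higher and 26.3% lower in young mice, and 29.2% and 29.3% in middle-aged mice. Read against those shares, the counts of both lists are no result about their genes. Kif19a, a kinesin (-2.26 and -2.90), Rnd2 (-1.99 and -2.33), and Pik3r3, a regulatory subunit of PI3-kinase (-1.13 and -1.86), fell at both ages, whereas the hyaluronan-degrading Cemip2 (1.06 and 1.41) and the small GTPase Rras2 (0.64 and 1.85) rose, as did the zinc transporter Tmem163 in middle-aged mice (1.72). Kif19a held only 5 to 13 counts in middle-aged injured pools.

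Mature oligodendrocyte genes fell further, 13 of 14 at each age, with medians of -2.02 in young and -2.24 in middle-aged mice. Opalin, a membrane protein of myelin (log2 fold change -2.84 and -2.91), and Mog, a glycoprotein of the myelin surface (-2.56 and -2.44), were among them. Of all tested genes 26.3% were lower in young and 29.3% in middle-aged mice. Summed mature markers went from 91267 to 108161 CPM in young naïve to 20087 to 22646 CPM in young injured pools, and from 56379 to 63851 CPM to 9065 to 13802 CPM in middle-aged pools. The log2 fold changes of Enpp6 (-2.02 and -1.84) were near these medians and those of Bcas1 (-1.08 and -0.64) were smaller, differences that were not tested. Microglia and macrophage markers rose, 7 of 8 at each age, against 28.3% of all tested genes in young and 29.2% in middle-aged mice. The microglia and macrophage sums went from 125 to 227 CPM in naïve to 1528 to 2075 CPM in injured pools. CPM are shares of a library, and the part of these markers in the falls was not tested.

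**Figure D5:**
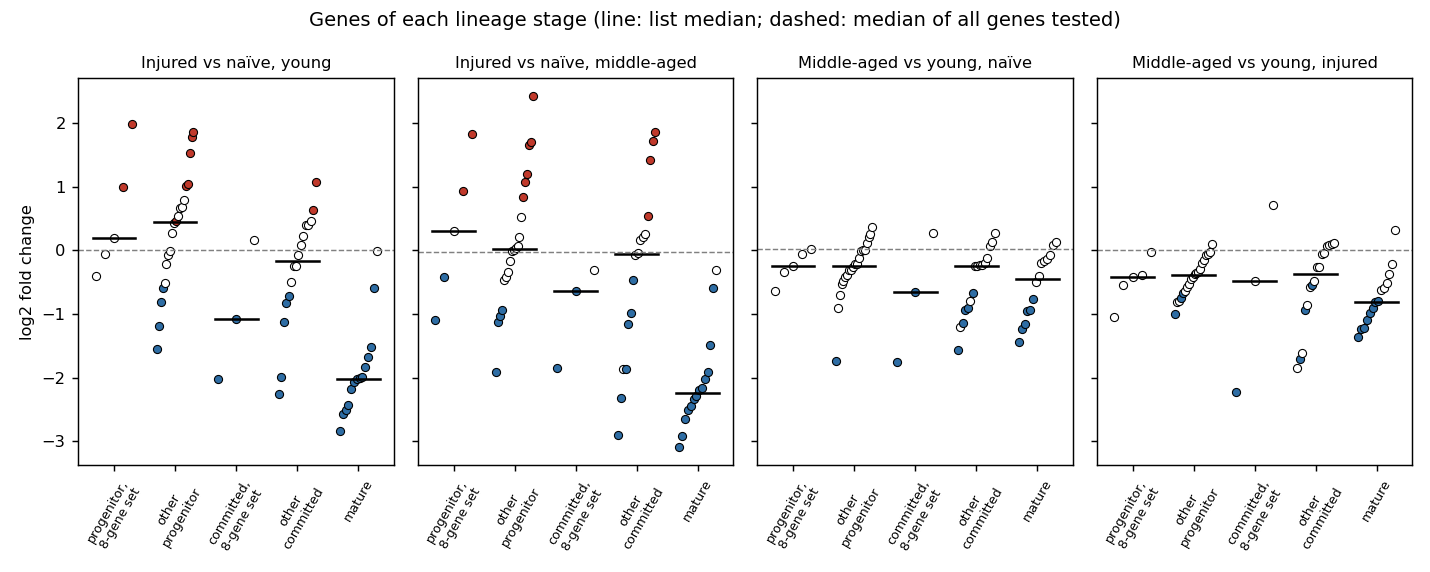
Log2 fold change (y axis) of the genes of each stage list (x axis) in the 4 comparisons, with 1 point per gene. Red points passed the edgeR test as higher, blue points passed as lower and open points did not pass, black lines are list medians, and the dashed line is the median of all tested genes. Mature oligodendrocyte genes lie lowest after injury, with medians of -2.02 and -2.24.

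With age in naïve mice, 1 of the 20 other progenitor genes passed in edgeR and was lower in the older mice. Of the 16 other committed-stage genes 5 were lower, led by Tmem163 (-1.56), Rras2 (-1.14) and the scaffold gene Cnksr3 (-0.94). Of the mature genes 6 of 14 were lower, led by Ugt8a, the enzyme that makes the myelin lipid galactosylceramide (-1.44), Cldn11, which forms the tight junctions of myelin (-1.24), and Opalin (-1.15). In injured mice 3 of 20, 3 of 16 and 8 of 14 were lower in the same lists, including the sialidase Neu4 (-1.70) among the committed-stage genes and Vcan (-0.75) and Dscam (-0.67) among the progenitor genes. Of all tested genes 1.78% were lower in naïve and 0.908% in injured mice, and 3.8% passed in either direction in naïve mice. The list medians were -0.24, -0.24 and -0.45 in naïve and -0.40, -0.37 and -0.81 in injured mice, against 0.013 and 0.0022 over all tested genes. Markers of other cells differed with age as well: 5 of 8 microglia and macrophage markers were higher in middle-aged naïve mice (sums of 187 to 227 CPM, against 125 to 162 CPM in young naïve mice), and 2 of 7 fibroblast markers were lower in middle-aged injured mice (405 to 822 CPM, against 910 to 1446 CPM). The part of these and of the mature oligodendrocyte genes in the age differences of Gpr17 and Enpp6 was not tested.

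Among 11 ligands and binding partners of the members, every gene but 2 passed after injury in young mice and all 11 passed in middle-aged mice, 4 and 5 of them higher. Over all tested genes 54.6% passed in young and 58.5% in middle-aged mice, with 28.3% and 29.2% higher. Fgf2, a growth factor that keeps progenitors dividing, rose most (log2 fold change 2.06 in young and 1.77 in middle-aged mice). Pdgfb, a ligand of both platelet-derived growth factor receptors, rose (1.11 and 1.42), as did Pdgfrb, the other receptor, by the values given above. Pdgfa, the ligand that binds Pdgfra, moved the other way from its receptor and fell (-0.48 and -0.54). For Ptprz1, its ligand Il34 rose (1.37 and 1.12), while its ligand Ptn (-0.74 and -0.98) and its partner Cntn1 (-1.37 and -1.46) fell. Grip1, an intracellular scaffold that binds the NG2 tail (-1.21 and -1.28), and Adgrb3, a receptor of C1q-like proteins (-0.82 and -1.03), fell. The Grip1 pools of young mice overlapped, at 2.90 to 10.7 CPM in naïve and 1.94 to 3.77 CPM in injured pools. Reads were few for Grip1 in middle-aged injured pools (15 to 26 counts) and for Il34 in young naïve pools (6 to 17 counts). Pdgfa, Pdgfrb and Ptn were named here for their ties to the members after their values were seen. With age 2 of 11 were lower in each state: Ptn (-0.78 in naïve and -1.03 in injured mice), Pdgfc in naïve mice (-0.78) and Mdk, the relative of Ptn, in injured mice (-0.65). Over all tested genes 1.78% were lower in naïve and 0.908% in injured mice.

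The genes whose log2 CPM followed each member most closely over the 12 pools were listed among 13084 genes by Pearson's r. They were Zmiz1 (0.993) and Mcm6 (0.991), a DNA replication helicase subunit, for Pdgfra, and Kif21b (0.991) and Col12a1 (0.982) for Cspg4. Enpp6 was followed by Gramd3 (0.995) and Elovl5 (0.994). Bcas1 was followed by its overlapping genes Bcas1os2 (0.978) and Bcas1os1 (0.975), and Gpr17 by Mycl (0.946) and by its overlapping gene Lims2 (0.934). Values were lower for Ptprz1 (Rimklb, 0.912, and Frem2, 0.908), C1ql1 (Maged2, 0.904, and Mpped2, 0.903) and Lhfpl3 (Adgrb2, 0.842, and Slc7a5, 0.841). The 12 points share their 4 groups and their libraries' composition, so these values describe the pools and carry no test.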

How the data were processed

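RNA from laser-captured white matter was amplified during library building and sequenced by the authors, who, per the labels and their processing notes, checked reads with FastQC 0.11.4, aligned them to Ensembl GRCm38 with TopHat2 2.0.10 and Bowtie 1.1.2, and counted them per gene with featureCounts. The authors deposited raw counts. The annotation release, the strand setting and the treatment of reads shared by genes are not given in the sources used here. Amplification adds copies that are not independent molecules.

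Symbols and positions were matched to the Ensembl identifiers with GENCODE vM21 (45143 of 46078 with a symbol). Genes were filtered with filterByExpr (15866 kept), scaled by TMM and fitted over all 12 pools with 1 coefficient per group by edgeR 4.0.16 in R 4.3.3 (glmQLFit, glmQLFTest). P-values were adjusted by Benjamini-Hochberg over all tested genes. log2 CPM used a prior count of 2. Pools were taken as replicates. The p-values weigh each difference between groups against a spread between pools that was estimated over all 12 pools. All members were named, and from each wider list and comparison up to 3 of the highest and 3 of the lowest fold changes past the threshold, though some of these genes are not reported here. For likeness the 2 genes with the highest r were taken among genes with a mean log2 CPM of at least 1. The members and the lists were chosen with earlier results of these data known, so they are no independent evidence. Alternatives were DESeq2 1.42.0, RLE scaling, upper quartile scaling, library totals, no filter, a filter of 1 CPM in 3 pools, another prior count of 0.5, only the pools compared, a replicate block and each pool left out. Simulated counts were made for the injury comparison in young mice, with 197 of 15544 genes changed. Of these, 54 of 98 changed 2-fold and 78 of 99 changed 4-fold were recovered, and 6.38% of the calls were false. In the data 54.6% of all tested genes passed this comparison. The rate of recovery or of false calls at such a share was not tested. Of the lists not described further, Schwann cell markers were 4 of 5 tested, with 2 higher and 1 lower in young and 1 higher and 1 lower in middle-aged mice after injury, and endothelial markers were 2 higher and 1 lower of 6 at each age. Neuronal markers were 4 lower of 6 in young and 1 higher and 4 lower in middle-aged mice. The shares over all tested genes were 28.3% higher and 26.3% lower in young mice, and 29.2% and 29.3% in middle-aged mice.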

Additional observations from a re-analysis of the deposited data

Results flagged for a closer look

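Tmem163, a zinc transporter on the committed-stage list, stood apart because its injury effect differed between the ages, by 1.63 on the log2 scale (SE 0.21, adjusted p = 0.0101, edgeR). It was 35.9 ± 2.73 CPM in young naïve, 12.2 ± 0.615 CPM in middle-aged naïve pools, and 38.2 ± 6.21 CPM in young and 40.1 ± 3.65 CPM in middle-aged pools after injury (SD, n = 3), so the low group was the middle-aged naïve. Without young injured replicate 2 the adjusted p was 0.0558 (edgeR), and the call held under each other setting tried.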

How the results depend on the processing

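Of 312 member values under settings other than leaving out a pool, 301 kept their direction and their side of the threshold, 5 lost a call, 5 gained a call and 1 reversed. Of 480 with a pool left out, 443 kept both, 21 lost a call and 16 reversed. The number of members called with age in injured mice was 2 rather than 1 in DESeq2 and without the filter (Gpr17 and Bcas1 in both) and with only the pools compared (Gpr17 and Enpp6), and in naïve mice 1 rather than 2 with library totals and 0 with only the pools compared, where in that fit the adjusted p was 0.0945 for Gpr17 and 0.229 for Enpp6 (edgeR). With a pool left out it ranged from 4 to 6 for injury in middle-aged mice, from 0 to 2 for age in naïve mice and from 0 to 1 for age in injured mice. DESeq2 called 5 other committed-stage genes rather than 3 for age in injured mice and 2 rather than 1 for the difference of injury effects. Library totals called 16 other progenitor genes rather than 10 for injury in young mice, and 1 ligand or partner rather than 2 for age in naïve mice, where the replicate block called 0. Lhfpl3 with age in naïve mice also passed without the filter (adjusted p = 0.0111, edgeR), as did Bcas1 with age in injured mice (0.00186). The cause of these changes was not tested. Library totals moved the median of all genes by 0.197 (log2) for injury in young and 0.109 in middle-aged mice, and the calls from 4483 higher and 4177 lower to 5380 and 3236 in young mice; Ptprz1 in young mice then reversed to 0.14.

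Directions reversed with a pool left out, all for values not called, for Ptprz1 (-0.14 to 0.0040) and Gpr17 (-0.018 to 0.46) with injury in young mice, Gpr17 with injury in middle-aged mice (-0.63 to 0.095), Pdgfra with age in naïve (-0.11 to 0.15) and injured mice (-0.065 to 0.010), and the difference of injury effects for Pdgfra (-0.19 to 0.081), Cspg4 (-0.35 to 0.068) and Lhfpl3 (-0.16 to 0.29). The replicate block changed no call of a member. Same-numbered pools of different groups deviated together at r over 0.1 in 2 of 18 pairs (-0.11 to 0.15), and 6 of 18 correlated best with their own number, so the numbers do not pair the pools. Over all genes, calls for age in naïve mice were 603, but 1111 in DESeq2, 1153 without the filter and 71 with only the pools compared; for age in injured mice 182, but 458, 437 and 818; and for the difference of injury effects 22, but 254 in DESeq2 and 329 without the filter. With a pool left out these ranged from 261 to 800, from 45 to 410 and from 3 to 56. Among the members, depth limited C1ql1 most, at 10 to 61 counts a pool.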

Other observations

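Over the 12 pools, log2 CPM of Pdgfra and Cspg4 correlated at r = 0.95, Lhfpl3 and Gpr17 at r = 0.80, and Pdgfra and Enpp6 at r = -0.92. These values describe 12 pools that share 4 groups and carry no test. Vcan stood at 55.5 ± 11.4 and 41.5 ± 6.93 CPM in the naïve groups and at 161 ± 26 and 95.3 ± 4.97 CPM after injury, young mice first (SD, n = 3).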
